A study of Mus musculus with 6 samples.

Results

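Lipid-associated macrophages are the macrophages that gather around enlarged and dying adipocytes in obese fat, and 9 genes that mark them were followed here: Trem2, Spp1, Gpnmb, Itgax, Cd9, Lgals3, Atp6v0d2, Cd63 and Emp1. They were taken by name from a table of 24539 genes, all 9 were listed, and all 9 were abundant enough to be tested among 14322 genes. The tissue was epididymal white adipose tissue (eWAT), the visceral fat pad beside the epididymis. The knockout group (Jmjd8-KO) held 3 mice, and the wild-type group (WT) held 3. Every mouse was of the C57BL/6 strain and was kept on a high-fat diet (HFD), so the controls too had fat of the diet-fed state, and no lean mice were analysed. Jmjd8 encodes a JmjC-domain protein reported in the lumen of the endoplasmic reticulum. The sources used here do not give the knockout allele, any tissue restriction of it, the age of the mice or the length of the diet.

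As background, lipid-associated macrophages take up lipid released by adipocytes and break it down in lysosomes. The receptor TREM2 senses lipids and signals through the adaptor DAP12, encoded by Tyrobp, and in mice it is needed for the full program. The same program carries a secreted matrix protein, a lectin, an integrin chain, tetraspanin membrane proteins and a subunit of the proton pump that acidifies lysosomes. Several of these genes are also used outside macrophages: Cd9, Cd63, Lgals3 and Emp1 are expressed by many cell types, so in whole fat their level is not a macrophage level alone. These are bulk libraries, in which fewer cells of a type and less RNA per cell cannot be told apart.

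The libraries held 17598696 to 20598473 counts. Jmjd8 itself had 39.4, 57.7 and 42.3 CPM (CPM are counts divided by the TMM-scaled library size) in Jmjd8-KO mice, against 112.4, 115.8 and 111.3 CPM in WT mice. Its log2 fold change was -1.28 (adjusted p = 0.0193), and its level was lower in every mouse of the knockout group, with reads remaining. In GENCODE M21, exons of Stub1 and Mir3082 on the other strand overlap Jmjd8. Without the strand setting of the counting, the remaining reads cannot be assigned to a strand. Adipoq, the adipocyte hormone adiponectin, averaged 2280 ± 244 CPM in Jmjd8-KO fat against 1689 ± 140 CPM in WT (SD, n = 3 each), and Wt1, a gene of visceral fat and its mesothelium, 20.4 and 14.6 CPM. Both were named as a check of the tissue label and not for their p-values. A library in each group stood apart. WT replicate 1 carried neural transcripts, with the 17 neural markers summing to 1551 CPM there against 69.2 to 99.8 CPM in the other 5 libraries. The counts of Jmjd8-KO replicate 2 departed from those of the other Jmjd8-KO mice, with a chi-square per degree of freedom of 46.0 and 42.9, beside 2.97 between replicates 1 and 3. Counts of calls are therefore also given without each of these libraries, for the 9 genes and for the related lists.

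Of the 9 genes, 5 fell in Jmjd8-KO fat, 0 rose and 4 did not pass. Spp1 fell most, followed by Gpnmb, Itgax, Cd9 and Lgals3. Trem2 and Atp6v0d2 were lower in all 3 Jmjd8-KO mice than in any WT mouse but missed the threshold, and Cd63 and Emp1 overlapped between the groups. Among all 14322 tested genes, 1.33% were called lower and 0.789% higher at an adjusted p under 0.05 (edgeR's quasi-likelihood test with Benjamini-Hochberg adjustment over all tested genes). The median log2 fold change of the 9 genes was -0.89, beside -0.01 over all tested genes, and 8 of the 9 were negative, beside 50.9% of all genes. In 7 of the 9 all 3 Jmjd8-KO values lay below all 3 WT values, as they did in 15.5% of all tested genes, while 14% had all 3 higher and 0 of the 9 did. The 9 genes were chosen with earlier results of these data known, so these contrasts with all genes are a description and not a test. The calls depended on which mice were fitted: 8 of the 9 fell without Jmjd8-KO replicate 2, and 0 passed when any other single mouse was left out, WT replicate 1 included.

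**Figure D1:**
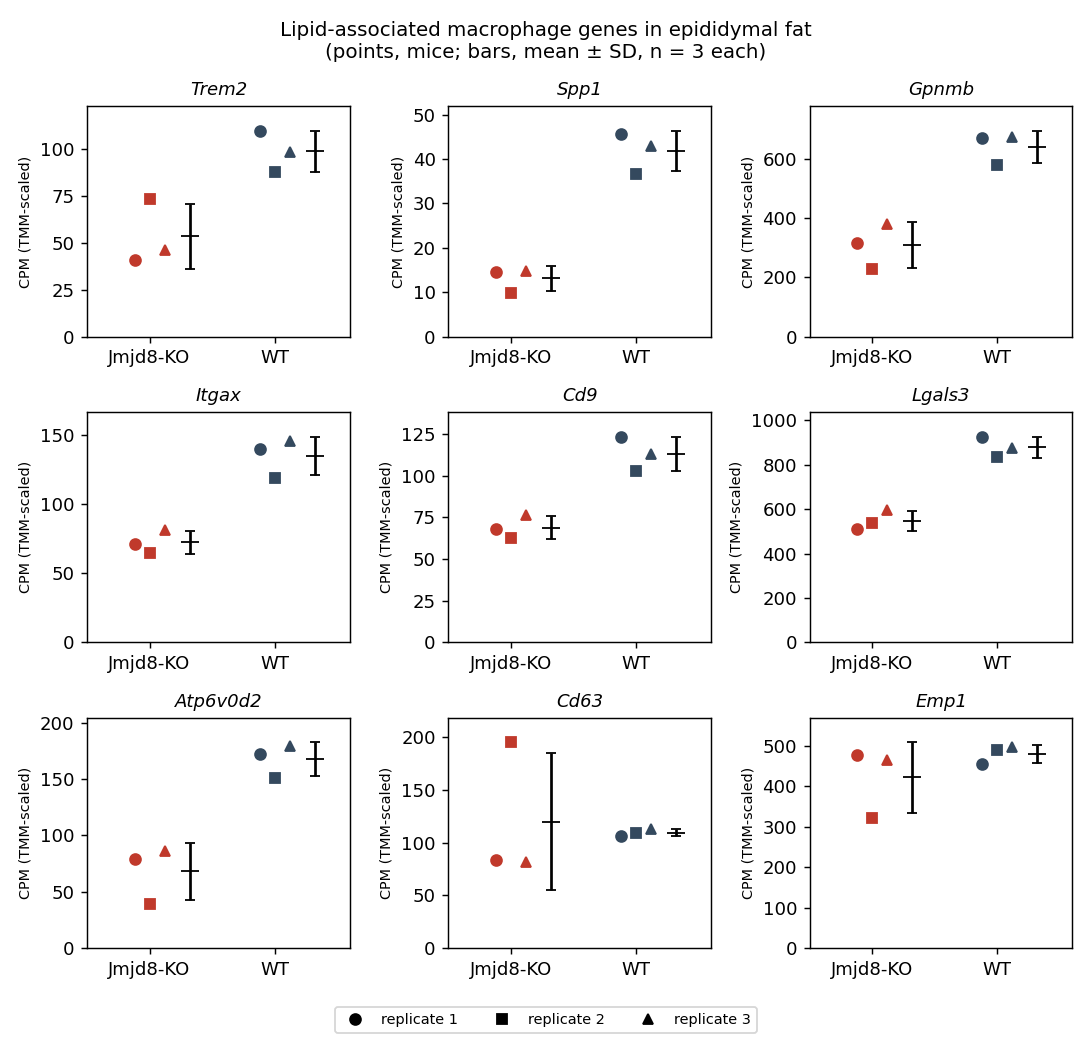
CPM (vertical axes, linear from 0) of each of the 9 genes in every mouse, with Jmjd8-KO at the left and WT at the right of each panel, marker shape giving the replicate number and black bars the mean ± SD of 3 mice. The groups are apart in 7 panels, and in the panels of Trem2, Spp1, Gpnmb, Atp6v0d2, Cd63 and Emp1 the square of Jmjd8-KO replicate 2 lies away from its 2 companions.

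Trem2 encodes the lipid-sensing receptor at the head of this program. It stood at 40.9, 73.5 and 46.0 CPM in Jmjd8-KO replicates 1, 2 and 3, against 109.7, 88.0 and 98.6 CPM in WT replicates 1, 2 and 3. The groups did not overlap, and Jmjd8-KO replicate 2 was closest to WT. Trem2 did not pass, at a log2 fold change of -0.89 with SE 0.219 and an adjusted p of 0.0954. Without Jmjd8-KO replicate 2 it fell by 1.18 on the log2 scale (SE 0.105, adjusted p = 0.00514). On leaving out any other single mouse Trem2 did not pass, at log2 fold changes of -0.97 to -0.72 and an adjusted p of 0.2 to 0.261. Trem2 lies on chromosome 17 of GRCm38 from 48346401 to 48354147 on the plus strand, 22.5 Mb from Jmjd8 on the same chromosome.

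The partners of TREM2 were lower too, in part. Of 14 tested genes of DAP12 signalling, 2 fell and 0 rose (median log2 fold change -0.32). Tyrobp, the adaptor itself, had 90.9 ± 6.70 CPM in Jmjd8-KO fat against 154.9 ± 5.87 CPM in WT fat (log2 fold change -0.77, SE 0.0798, adjusted p = 0.0181), and Pik3ap1, an adaptor for phosphoinositide 3-kinase, fell by 0.59 on the log2 scale (adjusted p = 0.0392). Vav1, an exchange factor downstream of such receptors, had -0.47 without passing (adjusted p = 0.0656). Of 4 tested genes listed as TREM2 ligands 0 passed: Apoe, the lipoprotein apolipoprotein E, was at 3751 ± 1040 CPM in Jmjd8-KO fat against 2711 ± 106 CPM in WT (adjusted p = 0.228). Il34, a cytokine of the macrophage growth factor receptor, had 0.45 on the log2 scale (adjusted p = 0.151), and Anxa1, annexin A1, -0.25 (adjusted p = 0.164). Of the 6 TREM family genes, Treml4 alone was tested besides Trem2, at 1.09 ± 0.110 CPM in Jmjd8-KO fat against 1.21 ± 0.364 CPM in WT (adjusted p = 0.802).

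Spp1 encodes osteopontin, a secreted matrix protein and cytokine bound by integrins and by CD44. It had 14.6, 9.86 and 14.9 CPM in Jmjd8-KO mice, against 45.6, 36.7 and 43.0 CPM in WT mice. The groups were far apart, the highest Jmjd8-KO value lying well under the lowest WT value. Spp1 fell to 31.3% of the WT level (log2 fold change -1.68, SE 0.176, adjusted p = 0.0181), and 1.36% of tested genes had a fold change as low or lower. Its counts, the smallest among the 9 genes, were 276, 196 and 256 in Jmjd8-KO against 923, 724 and 854 in WT. In GENCODE M21 an exon of the gene model Gm42793 overlaps Spp1 on the same strand, and that model is not a row of the table used here.

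Among 9 receptors of osteopontin, 1 fell and 0 rose (median -0.06). The 1 was Cd44, the hyaluronan and osteopontin receptor, with 110.1, 77.6 and 122.2 CPM in Jmjd8-KO mice against 199.8, 207.5 and 179.7 CPM in WT mice (log2 fold change -0.92, SE 0.166, adjusted p = 0.0443). Itga5, a chain of the fibronectin receptor, had -0.41 (adjusted p = 0.124) and Itga8, an integrin chain of stromal cells, 0.62 (adjusted p = 0.199), both without passing.

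Gpnmb encodes a glycoprotein of lysosomes and the cell surface that is abundant in lipid-laden macrophages. It had 315.2, 228.4 and 381.7 CPM in Jmjd8-KO mice, against 669.3, 578.0 and 674.0 CPM in WT mice. The lowest value was that of Jmjd8-KO replicate 2, and the groups were well apart. Gpnmb fell to 48.2% of the WT level (log2 fold change -1.05, SE 0.182, adjusted p = 0.0417). Without Jmjd8-KO replicate 2 it fell by 0.88 (adjusted p = 0.0101). On leaving out any other single mouse Gpnmb did not pass, at an adjusted p of 0.0714 to 0.187.

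Itgax encodes the integrin chain CD11c, which pairs with the common beta-2 chain and marks the macrophages recruited to obese fat as well as dendritic cells. It had 70.7, 64.7 and 81.1 CPM in Jmjd8-KO mice, against 139.8, 118.8 and 145.3 CPM in WT mice, with no overlap. Itgax fell to 53.6% of the WT level (log2 fold change -0.90, SE 0.116, adjusted p = 0.0236). Of 7 genes of the beta-2 integrins and their activators, Itgax among them, 2 fell and 0 rose. The other was Itgad, the chain CD11d of tissue macrophages, at 19.6 ± 3.04 CPM in Jmjd8-KO fat against 40.95 ± 2.93 CPM in WT fat (log2 fold change -1.06, SE 0.129, adjusted p = 0.0214). Itgb2, the shared beta chain, had -0.41 without passing (adjusted p = 0.0926). Dendritic cell markers, which share Itgax, were measured beside it: 0 of 10 passed, with a median log2 fold change of 0.11 and a summed level of 96.3 to 109.8 CPM in Jmjd8-KO fat against 96.1 to 99.6 CPM in WT. The largest part of that sum was Clec10a, named after its values were seen. It had 57.7 to 69.7 CPM in Jmjd8-KO fat against 58.3 to 64.6 CPM in WT, so the sum says little of the other markers. Of those, Itgae had 0.49 (adjusted p = 0.215) and Xcr1 -0.68 (adjusted p = 0.297).

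Cd9 and Cd63 encode tetraspanins, small proteins that cross the membrane 4 times and organise other proteins in it; CD63 is best known from late endosomes, lysosomes and exosomes. Cd9 had 68.0, 62.4 and 76.2 CPM in Jmjd8-KO mice, against 123.5, 102.7 and 113.1 CPM in WT mice. The groups did not overlap and Cd9 fell to 60.8% of the WT level (log2 fold change -0.72, SE 0.105, adjusted p = 0.0298). Exons of the gene model Gm26728 on the other strand overlap Cd9, and without the strand setting of the counting, reads there cannot be assigned to a strand. Cd63 had 83.8, 194.8 and 81.2 CPM in Jmjd8-KO mice, against 106.5, 108.6 and 113.0 CPM in WT mice. Jmjd8-KO replicate 2 was the highest of the 6 libraries and the other Jmjd8-KO mice were the lowest. The log2 fold change of Cd63 was 0.13 (SE 0.328, adjusted p = 0.840), and without Jmjd8-KO replicate 2 it was -0.41 (SE 0.0467, adjusted p = 0.00892), a fall. On leaving out any other single mouse it was 0.11 to 0.35, at an adjusted p of 0.565 to 0.92. Of 23 tetraspanins tested, Cd9 was the 1 that passed with all 6 mice; Cd37, a tetraspanin of leukocytes, and Tspan33 had -0.35 (adjusted p = 0.136) and -0.70 (adjusted p = 0.144), and the median of the family was -0.12.

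Lgals3 encodes galectin-3, a lectin that binds beta-galactosides and is made in large amounts by macrophages. It had 509.1, 535.5 and 594.9 CPM in Jmjd8-KO mice, against 926.2, 832.6 and 874.5 CPM in WT mice. The spread between mice was small and the groups did not overlap. Lgals3 fell to 62.3% of the WT level (log2 fold change -0.68, SE 0.0885, adjusted p = 0.0236), and it was the 1 galectin of 8 that passed. Lgals12, a galectin of adipocyte lipid droplets, had 0.38 (adjusted p = 0.0692) and Lgals7, an epithelial galectin, 0.74 (adjusted p = 0.145), without passing.

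Atp6v0d2 encodes the d2 subunit in the membrane sector of the vacuolar proton pump (V-ATPase), a form found in macrophages and osteoclasts. It had 79.4, 39.2 and 86.2 CPM in Jmjd8-KO mice, against 172.5, 150.9 and 179.5 CPM in WT mice. Jmjd8-KO replicate 2 was the lowest of the 6 and the groups were apart. Atp6v0d2 did not pass with all mice, at a log2 fold change of -1.30 with SE 0.273 and an adjusted p of 0.0662; without Jmjd8-KO replicate 2 Atp6v0d2 fell by 1.02 (SE 0.0860, adjusted p = 0.00498). Atp6v0d1, the d1 form found in most cells and named after its values were seen, averaged 162.3 ± 1.57 CPM in Jmjd8-KO fat against 161.3 ± 2.68 CPM in WT fat (log2 fold change 0.01, SE 0.0621, adjusted p = 0.946).

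Of the 21 V-ATPase subunits tested, 2 fell and 0 rose (median -0.17). Both encode forms of the large membrane subunit a: Tcirg1, the form of osteoclasts and macrophages, averaged 66.7 ± 6.86 CPM in Jmjd8-KO fat against 105.2 ± 1.58 CPM in WT fat (log2 fold change -0.66, SE 0.0891, adjusted p = 0.0268), and Atp6v0a1 fell by 0.51 (SE 0.0860, adjusted p = 0.0407). Of 24 other lysosomal membrane proteins and hydrolases, 2 fell and 0 rose (median -0.24), while 23 of the 24 had a negative log2 fold change. The cathepsins Ctsk and Ctss fell by 0.85 (adjusted p = 0.0193) and 0.63 (adjusted p = 0.0217), and Gusb, beta-glucuronidase, had -0.33 without passing (adjusted p = 0.0562). The MiT/TFE factors, which activate lysosomal genes, did not pass in 4 of 4 cases; Mitf was at 27.8 ± 4.06 CPM in Jmjd8-KO fat against 36.0 ± 0.445 CPM in WT fat (log2 fold change -0.37, adjusted p = 0.155). Tfec, the macrophage member, had -0.79 (adjusted p = 0.216) and Tfe3 -0.21 (adjusted p = 0.316).

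Markers of osteoclasts and giant cells, which share Atp6v0d2 with lipid-associated macrophages, held 2 genes that fell among 7 tested and 0 that rose (median -0.2). They were Ctsk, above, and Tnfrsf11a, the receptor RANK, at 13.9 ± 2.74 CPM in Jmjd8-KO fat against 31.0 ± 4.02 CPM in WT fat (log2 fold change -1.16, SE 0.171, adjusted p = 0.0303). Mmp9, a gelatinase, had 0.46 without passing (adjusted p = 0.165). Acp5, named after its values were seen, averaged 296.6 ± 23 CPM in Jmjd8-KO fat against 250.1 ± 11.1 CPM in WT (adjusted p = 0.18). In 2 of the 7 all 3 Jmjd8-KO values lay below all 3 WT values, beside 15.5% of all tested genes. In 2 others, Acp5 and Mmp9, they lay above, beside 14%.

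Emp1 encodes epithelial membrane protein 1, a small membrane protein of the PMP22 family. It had 478.0, 322.2 and 466.0 CPM in Jmjd8-KO mice, against 455.6, 490.5 and 497.1 CPM in WT mice. The groups overlapped, and Jmjd8-KO replicate 2 was the lowest. Emp1 did not pass, with -0.19 on the log2 scale (adjusted p = 0.522) and -0.03 (adjusted p = 0.796) without Jmjd8-KO replicate 2. None of the 4 family members passed in edgeR's test, at an adjusted p of 0.155 for Emp2 (log2 fold change 0.27) and 0.243 for Emp3 (-0.72).

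Jmjd8-KO replicate 2 lay apart from Jmjd8-KO replicates 1 and 3 in 6 of the 9 genes, upward in some and downward in others. On the log2 CPM scale it differed from the mean of those replicates by 1.24 for Cd63 and 0.76 for Trem2, and by -1.07 for Atp6v0d2, -0.60 for Gpnmb, -0.57 for Spp1 and -0.55 for Emp1. The difference between replicates 1 and 3 was 0.05 for Cd63, -0.17 for Trem2, -0.12 for Atp6v0d2, -0.28 for Gpnmb, -0.03 for Spp1 and 0.04 for Emp1. Itgax, Cd9 and Lgals3 deviated less, by -0.23, -0.21 and -0.04. Leaving this mouse out brought the SE of the log2 fold change to 0.108 for Spp1 and 0.107 for Gpnmb, against 0.176 and 0.182 with all mice. Over all tested genes with a mean of at least 5 CPM the difference of Jmjd8-KO replicate 2 from the others of its group moved with the GC content of the transcript, with a median of -0.29 at 40% GC or less and 0.41 above 60%. For WT replicate 1 against WT replicates 2 and 3 the corresponding medians were -0.02 and 0.05. The difference of Jmjd8-KO replicate 2 also moved with transcript length, with a median of 0.28 at 1000 bases or less and -0.15 above 8000 bases. Trem2 and Cd63, which deviated upward, have 1088 and 1109 bases, in a length class with a median of 0.16. Spp1, with 1507 bases, is in that class too and deviated downward. Trem2 has 57.5% GC, Cd63 49.6%, Emp1 45.3% and Atp6v0d2 41.6%. Trem2 and Atp6v0d2 deviated in the direction of the trend but by more than the median of their GC class (0.19 and -0.15). Cd63 lay in a class with a median of -0.06. Emp1 and Gpnmb lay in the same class and deviated downward, although Gpnmb has the 49.6% GC of Cd63. Spp1, at 43.3%, deviated by -0.57 in the class with a median of -0.15. Of 10 adipose progenitor markers, 2 collagen genes, Col1a1 and Col3a1, were highest in Jmjd8-KO replicate 2, as Cd63 was; both are named after their values were seen. Their sum was 3552, 6677 and 3775 CPM in Jmjd8-KO mice against 3888, 3893 and 4131 CPM in WT mice. The other 8 did not share this: they summed to 1901, 1786 and 2063 CPM in Jmjd8-KO mice against 1611, 1771 and 1798 CPM in WT mice, and 6 of them were lowest in Jmjd8-KO replicate 2. The largest part of that sum was Col15a1, also a collagen gene, with 1072, 1138 and 1180 CPM in Jmjd8-KO replicates 1, 2 and 3. The part of GC content and transcript length in the values of the 9 genes was not tested apart from the fits that follow.

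Without Jmjd8-KO replicate 2, 8 of the 9 genes fell, all but Emp1, where 4.82% of all tested genes were called lower. With each library's trend over GC removed as an offset, 7 of the 9 fell, Trem2 (log2 fold change -0.92, adjusted p = 0.0404) and Atp6v0d2 (-1.23, adjusted p = 0.0458) being added, where 1.57% of all genes were called lower; this fit was chosen after seeing the data. Without WT replicate 1, 0 of the 9 passed, with 15 genes called lower in all (0.104%). There the log2 fold changes were -1.62 for Spp1 (adjusted p = 0.0504), -1.03 for Gpnmb (0.114), -0.88 for Itgax (0.0805), -0.66 for Cd9 (0.0936) and -0.65 for Lgals3 (0.0827), close to those with all 6 mice. In the same fit they were -0.81 for Trem2 (0.238), -1.29 for Atp6v0d2 (0.157), 0.11 for Cd63 (0.92) and -0.24 for Emp1 (0.607). The number passing was also 0 on leaving out any 1 of the 4 remaining mice, where at most 3 genes were called lower in the whole table (0.0138% with Jmjd8-KO replicate 1 left out, 0.0207% for Jmjd8-KO replicate 3 or WT replicate 2, and 0% for WT replicate 3). At the other settings the genes lower among the 9 are given beside the share of all genes called lower. They were 5 against 2.01% with library size alone, 5 against 1.26% with RLE factors and 5 against 2.03% with a minimum count of 50. They were 4 against 0.554% with no filter, 7 against 3.49% in DESeq2 and 8 against 7.21% in limma-voom with quality weights. They were 8 against 9.72% without both Jmjd8-KO replicate 2 and WT replicate 1, 7 against 1.54% with a GC and length offset and 1 against 0.0279% with a replicate block.

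**Figure D2:**
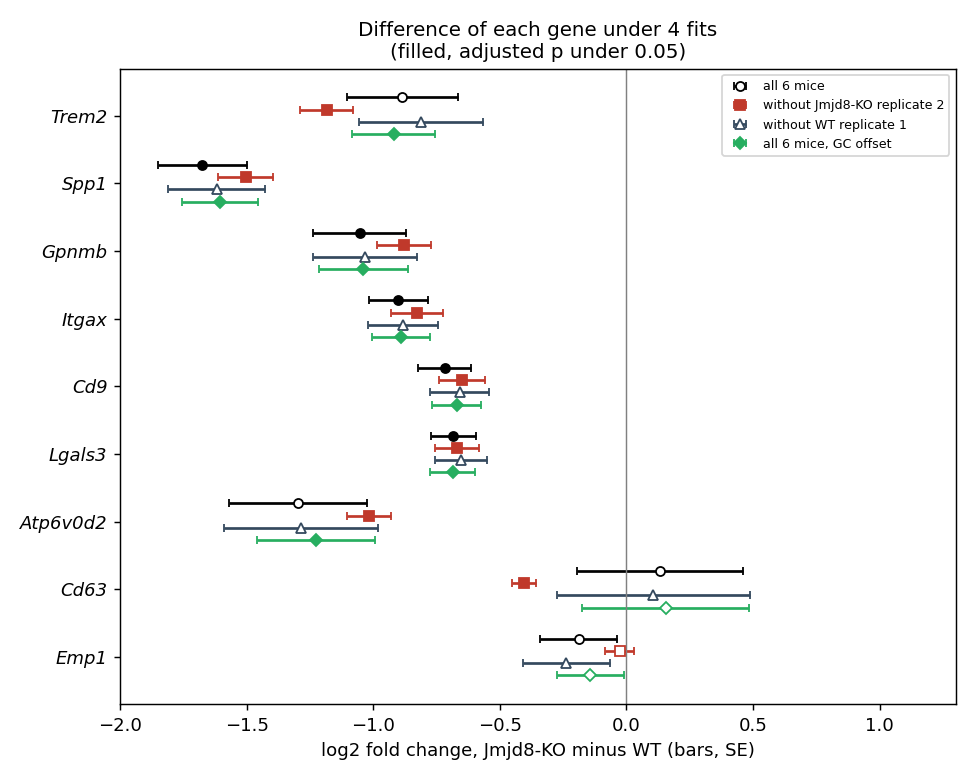
Log2 fold change of each gene, Jmjd8-KO minus WT, with its standard error (bars) in 4 edgeR fits: all 6 mice, all but Jmjd8-KO replicate 2, all but WT replicate 1, and all 6 with a GC offset. Filled markers passed at an adjusted p under 0.05. Estimates for Spp1, Gpnmb, Itgax, Cd9 and Lgals3 stay close together across the fits, while Cd63 lies at -0.41 without Jmjd8-KO replicate 2 and at 0.13 with all mice.

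**Figure D3:**
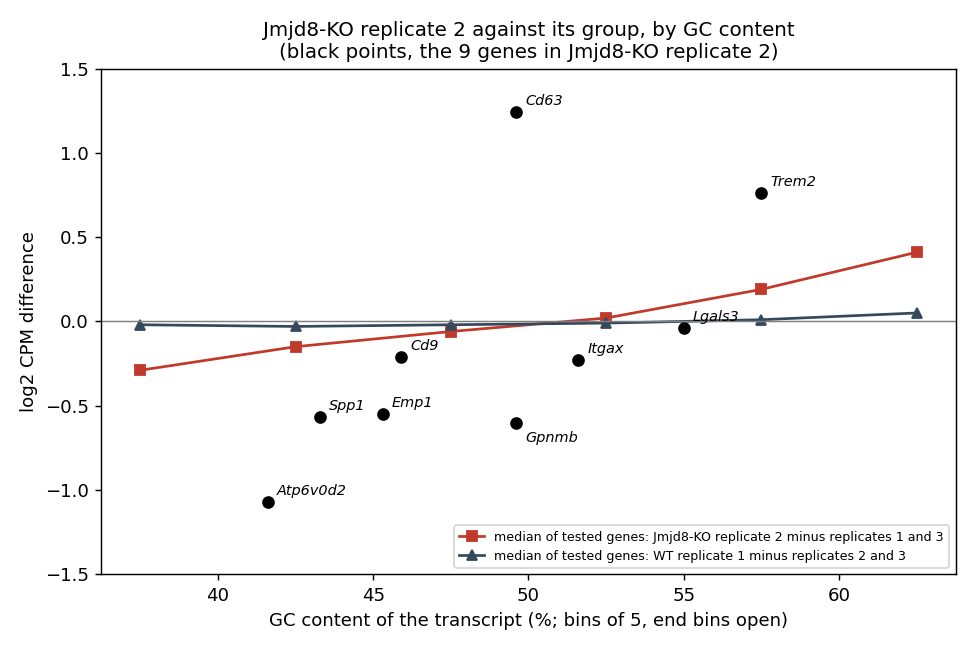
Difference in log2 CPM (vertical axis) between a library and the other replicates of its group against the GC content of the transcript (horizontal axis, %). Lines join the medians of tested genes with at least 5 CPM in classes of GC content, for Jmjd8-KO replicate 2 (red) and WT replicate 1 (blue), and black points are the 9 genes in Jmjd8-KO replicate 2. The red line climbs with GC content. Cd63 and Trem2 lie well above it, and Atp6v0d2, Gpnmb, Spp1 and Emp1 well below it.

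Each gene was also set against core macrophage markers, of which 7 of 16 fell and 0 rose, the other 9 missing the threshold. Their median log2 fold change was -0.53, and their summed level was 3279, 2996 and 3512 CPM in Jmjd8-KO mice against 4461, 4488 and 4613 CPM in WT mice. Fcgr1, an antibody receptor, fell by 0.93 (adjusted p = 0.0265) and Adgre1, the F4/80 antigen, by 0.63 (adjusted p = 0.0381), beside Tyrobp, C1qa, C1qb, Cd84 and Lyz2. Csf1r, the growth factor receptor of macrophages and named after its values were seen, averaged 397.8 ± 17.4 CPM in Jmjd8-KO fat against 404.5 ± 19.8 CPM in WT (adjusted p = 0.875). Without Jmjd8-KO replicate 2, 13 of the 16 fell, where 4.82% of all tested genes were called lower. Without WT replicate 1, 0 of the 16 passed, where 0.104% of all tested genes were called lower. Their median log2 fold change in that fit was -0.55.

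As a share of this sum, 6 of the 9 genes were lower in every Jmjd8-KO mouse than in any WT mouse, as 2.01% of all tested genes were on this scale. Dividing by a sum that is itself smaller in Jmjd8-KO fat raises the share of every gene there: 67.5% of all genes had a higher share in every Jmjd8-KO mouse, and 0 of the 9 did. A lower share was not particular to the 9 genes, because some of the 16 markers also fell by more than their sum. Fcgr1 (log2 fold change -0.93), Cd84 (-0.84) and Tyrobp (-0.77) had lower fold changes than Cd9 (-0.72) and Lgals3 (-0.68). Other markers moved less, such as Csf1r at -0.02. Spp1 stood at 0.444%, 0.329% and 0.424% of the sum in Jmjd8-KO mice, against 1.02%, 0.818% and 0.933% in WT mice. Atp6v0d2 stood at 2.42%, 1.31% and 2.46% in Jmjd8-KO mice, against 3.87%, 3.36% and 3.89% in WT mice. Neither overlapped, and the log2 differences in the share were -1.22 for Spp1 and -0.90 for Atp6v0d2. Gpnmb and Itgax followed at -0.61 and -0.43. Cd9 had 2.07%, 2.08% and 2.17% in Jmjd8-KO mice against 2.77%, 2.29% and 2.45% in WT mice, and Lgals3 had 15.5%, 17.9% and 16.9% against 20.8%, 18.6% and 19.0%, with log2 differences of -0.24 and -0.21 and narrow gaps between the groups. Trem2 overlapped, at 1.25%, 2.45% and 1.31% in Jmjd8-KO mice against 2.46%, 1.96% and 2.14% in WT mice, as did Cd63 and Emp1. These shares are given as a description, with no test.

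**Figure D4:**
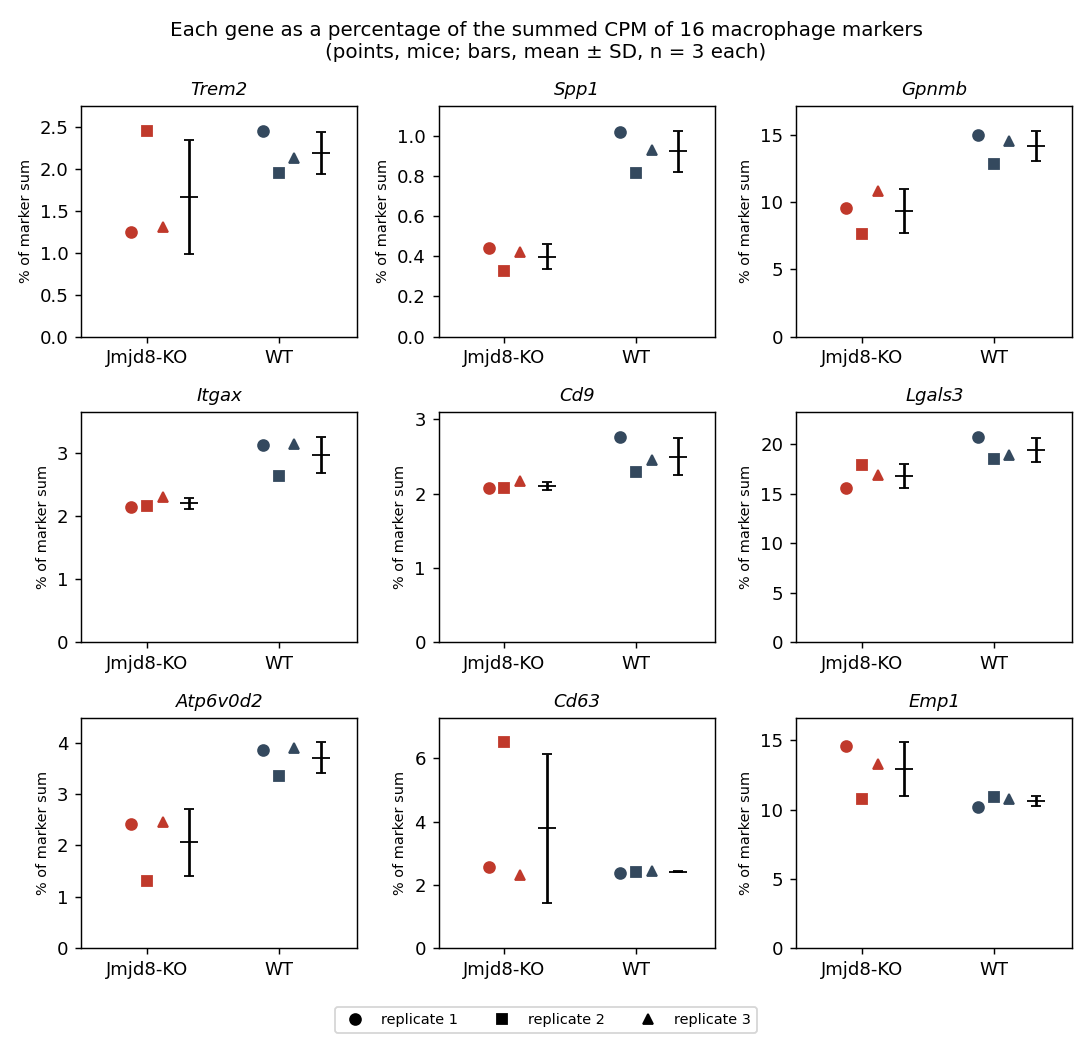
Each of the 9 genes as a percentage of the summed CPM of 16 core macrophage markers (vertical axes, linear from 0) in every mouse, Jmjd8-KO at the left and WT at the right, with the mean ± SD of 3 mice in black. Spp1, Gpnmb, Itgax, Cd9, Lgals3 and Atp6v0d2 show no overlap, and Emp1 averages 12.9% in Jmjd8-KO and 10.6% in WT.

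Other genes used by lipid-associated macrophages were examined beside the 9. Of 20 tested, 2 fell and 0 rose (median -0.22): Nceh1, a cholesterol ester hydrolase, averaged 47.6 ± 7.60 CPM in Jmjd8-KO fat against 87.7 ± 6.33 CPM in WT fat (log2 fold change -0.88, SE 0.128, adjusted p = 0.0293), and Pld3, a lysosomal nuclease, fell by 0.65 (adjusted p = 0.0414). Capg, an actin-capping protein, had -0.49 (adjusted p = 0.0508). Without Jmjd8-KO replicate 2, 11 of the 20 fell (median -0.31), and without WT replicate 1, 0 passed (median -0.25). The list includes genes that adipocytes express at high level, such as Lpl, lipoprotein lipase, at 12530 ± 799 CPM in Jmjd8-KO fat against 11970 ± 619 CPM in WT, and Cd36, a fatty acid transporter, at 4148 ± 563 and 4334 ± 152 CPM; both are named after their values were seen. Adipocyte markers lay the other way, with 3 of 13 higher and 0 lower (median 0.43), among them Slc2a4, the glucose transporter GLUT4, at 171.8 ± 10.3 CPM in Jmjd8-KO fat against 109.3 ± 8.07 CPM in WT. Of 9 mesothelial markers 3 rose and 0 fell (median 0.87). T cell, B cell, mast cell and neutrophil lists held 1 gene each that fell and 0 that rose, among 7, 6, 7 and 3 tested. These were Il7r, Jchain, Mcpt4 and S100a8, and the list medians were -0.38, 0.23, -0.52 and -0.265 in that order. In the B cell list 1 gene, Jchain, had a negative log2 fold change, and Blk had 0.93 without passing (adjusted p = 0.1). In the neutrophil list Retnlg had 2.05 without passing (adjusted p = 0.0676). Without Jmjd8-KO replicate 2, more genes were called in the whole table. Of 14468 tested, 697 were lower (4.82%) and 654 higher, against 191 and 113 of 14322 with all mice. The genes that fell in that fit numbered 5 for DAP12 signalling, 5 for V-ATPase subunits, 10 for the lysosomal list, 4 for beta-2 integrins and 3 for tetraspanins. They numbered 2 for osteoclast markers, 1 for osteopontin receptors, 1 for galectins (with 1 that rose) and 0 for MiT/TFE factors, dendritic cell markers and TREM2 ligands. In the EMP family 1 fell and 1 rose in that fit, and 8 adipocyte and 8 mesothelial markers rose. Mast cell markers then held 3 that fell, and the T cell, B cell and neutrophil lists 1 each. Without WT replicate 1, 0 genes passed in each of these lists except 1 neutrophil gene that fell. The part of such shifts in cell makeup in the levels of the 9 genes was not tested.

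**Figure D5:**
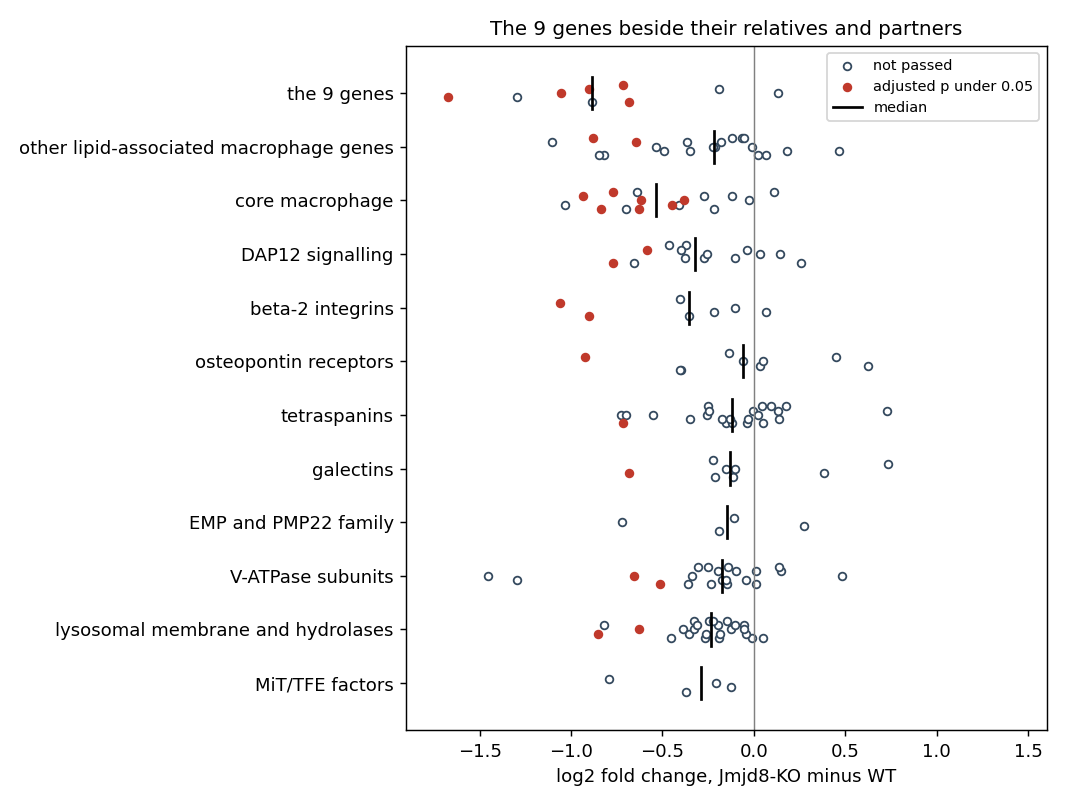
Log2 fold change, Jmjd8-KO minus WT (horizontal axis), of the 9 genes and of the tested members of related gene lists; each point is a gene, red where the adjusted p was under 0.05, and black ticks are list medians. The integrin, tetraspanin, galectin, EMP and V-ATPase rows contain the relevant gene of the 9, and the median of the 9 genes, at -0.89, lies left of every other median shown.

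Per length, on the deposited RPKM scale (reads scaled to gene length and library size), Lgals3 was the most abundant of the 9 in all 6 libraries and Spp1 the least. Lgals3 had 352 ± 29.8 RPKM in Jmjd8-KO and 591 ± 39.2 RPKM in WT, and Spp1 7.15 ± 1.56 and 23.8 ± 2.90 RPKM. In WT the order below Lgals3 was Gpnmb (160 ± 15.3 RPKM), Emp1 (149 ± 5.73), Cd9 (89.8 ± 9.40), Cd63 (85.4 ± 2.56), Trem2 (81.6 ± 10), Atp6v0d2 (63.4 ± 6.26) and Itgax (31.7 ± 3.60). Gpnmb and Emp1 did not differ beyond their spread in WT, nor did Cd9, Cd63 and Trem2. In Jmjd8-KO fat Emp1 came after Lgals3 at 125 ± 26.2 RPKM, and Cd63 (89.4 ± 47.9) and Gpnmb (73.5 ± 18.7) overlapped.

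The genes fell into a few shapes across the 6 mice. Likeness was measured as the root-mean-square difference between log2 CPM profiles after each gene's mean was taken away, so smaller is more alike. Cd9 and Lgals3 were the closest 2 of the 9 at 0.0684, and Itgax lay 0.108 from Cd9 and 0.140 from Lgals3. Spp1 and Atp6v0d2 were 0.234 apart, and Cd63 lay 1.04 from both. Among 10932 genes with a mean of at least 5 CPM, those most like Gpnmb were Adam8, a membrane metalloprotease, at 0.0343, Stap1, a signalling adaptor, and Clec7a, the fungal glucan receptor Dectin-1. Adam8 had 75.0, 50.3 and 86.6 CPM in Jmjd8-KO mice, against 154.2, 134.5 and 156.7 CPM in WT mice. Most like Itgax were Atf3, a stress-responsive transcription factor, at 0.0296, Slc37a2, a sugar phosphate transporter of macrophages, at 0.0312, and Micall2. Most like Cd9 was Pld3 at 0.0403, most like Spp1 was Ptchd1 at 0.0956, and most like Atp6v0d2 were Glipr1, Ccl2, the monocyte chemokine, and Cd180, a Toll-like receptor relative of leukocytes. Cd63 was most like Bola2, a small iron-handling protein, at 0.0465, and Col1a1, a collagen chain, at 0.0693, and both were also highest in Jmjd8-KO replicate 2.

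The RefSeq promoter windows (GRCm38.p6; 250 bases before to 50 after the start) were read for 8 of the 9 genes, in 10 windows, because several of these genes moved together. Exact words for MiT/TFE factors (CACGTG or TCATGTG), for PU.1-type ETS factors of macrophages (GAGGAAG) and for AP-1 (TGAGTCA) were searched on both strands; no match found overlaps another. CACGTG and TCATGTG occurred in 0 of the 10 windows, beside 7.15% and 3.77% of all 32851 windows. GAGGAAG was found in Trem2, Spp1 and Cd63 and TGAGTCA in Gpnmb, Itgax and Emp1, in 3 windows each, beside 13.6% and 5.2% of all windows. The stretches from 150 bases before the start to 20 after it are shown for the 4 of these genes whose groups did not overlap, on the strand of the gene, which is the plus strand in all 4, with the word in capitals, as its complement where it lies on the other strand. They are chr17:48346251-48346420 for Trem2, chr5:104434961-104435130 for Spp1, chr6:49036368-49036537 for Gpnmb and chr7:128129400-128129569 for Itgax.
Trem2: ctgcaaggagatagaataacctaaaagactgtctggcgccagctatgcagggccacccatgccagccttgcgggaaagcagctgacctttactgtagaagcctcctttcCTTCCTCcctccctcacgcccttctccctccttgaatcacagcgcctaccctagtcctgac
Spp1: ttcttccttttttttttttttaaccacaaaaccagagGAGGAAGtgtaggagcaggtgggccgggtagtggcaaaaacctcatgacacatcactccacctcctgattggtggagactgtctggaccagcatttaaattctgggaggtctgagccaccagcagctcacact
Gpnmb: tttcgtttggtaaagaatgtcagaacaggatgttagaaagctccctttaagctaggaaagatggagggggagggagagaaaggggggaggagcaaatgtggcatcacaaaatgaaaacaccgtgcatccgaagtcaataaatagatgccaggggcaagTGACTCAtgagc
Itgax: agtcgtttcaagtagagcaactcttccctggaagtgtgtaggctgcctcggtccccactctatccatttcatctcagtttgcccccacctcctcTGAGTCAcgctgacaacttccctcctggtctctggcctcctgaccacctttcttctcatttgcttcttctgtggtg
The word of Trem2 begins 41 bases before the start and is on the other strand, that of Spp1 begins 113 bases before it, that of Gpnmb begins 8 bases after it on the other strand and that of Itgax begins 56 bases before it. Among genes with the ETS word, Trem2 and Spp1 were 0.585 apart in profile, and Cd63 lay 0.508 from Trem2 and 1.04 from Spp1. Among genes with the AP-1 word, Gpnmb and Itgax were 0.158 apart, and Emp1 lay 0.455 from Gpnmb and 0.382 from Itgax. Cd63 and Emp1, the genes whose groups overlapped, held 1 word each as well. These matches describe letters in the window and not binding.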

How the data were processed

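Whole-tissue RNA of 6 mice was sequenced on a BGISEQ machine, per the labels' protocols. STAR, featureCounts and the build mm10 are named, per the submitters' processing notes. The sources used here give no versions, annotation or strand setting. The authors deposited a raw count and an RPKM value per gene and mouse, per the file headers. RPKM was used only to compare levels between genes.

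Genes were filtered with filterByExpr (minimum count 10). Counts were tested after TMM scaling in edgeR 4.0.16 (quasi-likelihood test, genotype as the only term, R 4.3.3), with Benjamini-Hochberg adjustment over 14322 genes and a threshold of 0.05. Fold changes are Jmjd8-KO over WT. Standard errors were derived from the fold change and the F statistic. The test was tried on simulated counts, which held neither the GC trend of Jmjd8-KO replicate 2 nor the neural excess of WT replicate 1. No result here rests on that trial. The alternatives used DESeq2 1.42.0, limma 3.58.1, other scalings and filters, fewer mice, a replicate block and GC offsets (splines of log2 CPM on GC of the longest coding transcript, known for 97.9% of genes). Positions are from GENCODE M21 (GRCm38, the assembly of mm10).

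The 9 genes and the related lists were chosen with earlier results of these data known. Genes named from a list passed the test or had one of its 3 smallest p-values, except where the text says otherwise. The series' design text gives 3 mice per genotype.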

Additional observations from a re-analysis of the deposited data

How the results depend on the processing

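Of the 9 genes, 5 fell in the edgeR test with all mice, and 0 rose under any alternative. The count was 5 with library size alone, with RLE scaling and with a minimum count of 50. It was 4 without a filter, 7 in DESeq2, 7 with a GC offset, 7 with a GC and length offset, and 8 in limma-voom with quality weights. Leaving out 1 mouse gave 0 to 8. Over all tested genes, calls lower and higher were 191 and 113 with all mice, 288 and 84 with library size alone, 513 and 510 in DESeq2, 1032 and 998 in voom, and 106 and 50 without a filter. The share of calls that were lower was 62.8% with all mice, 77.4% with library size alone, 50.1% in DESeq2, 50.8% in voom and 51.6% without Jmjd8-KO replicate 2. Calls lower and higher in the related lists, 22 and 6 with all mice, were 43 and 23 in DESeq2, 71 and 29 in voom, and 13 and 2 without a filter. Leaving out 1 mouse gave 0 to 697 lower and 0 to 654 higher over all genes, and 0 to 57 and 0 to 19 in the lists. Without both Jmjd8-KO replicate 2 and WT replicate 1 there were 8 of the 9 genes, 1389 and 1444 genes over all (49% lower), and 84 and 39 in the lists; these are the mice that stood apart in their groups. The log2 fold change of Cd63 was 0.13 with all mice, -0.38 in voom, -0.43 without both of those mice, and between -0.41 and 0.35 on leaving out 1 mouse. With the replicate number as a block, 1 of the 9 genes fell (Spp1, adjusted p = 0.0453), with 4 and 1 genes over all and 0 and 0 in the lists. Same-numbered mice did not deviate together (correlations of -0.045, -0.037 and 0.005), so the numbers were not taken as pairs. The cause of these differences was not tested. Spp1, with 196 to 923 counts a mouse, was the least deeply counted of the 9 genes.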
